A study of Mus musculus with 27 samples.

Results

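The oligoadenylate synthetase family was followed through 9 conditions of mouse bone marrow-derived macrophages (BMDM). Its members were taken by name, as every array probe whose gene name in the array file is Oas1a, Oas1b, Oas1g, Oas2, Oas3, Oasl1 or Oasl2. This gave 11 probes for 7 genes, of 55681 probes in the series. The study asked how macrophages that have met a Toll-like receptor (TLR) ligand respond when they meet the same ligand again. BMDM were grown for 7 days in medium conditioned by L929 cells from the marrow of female C57BL/6 mice aged 6 to 8 weeks. They were left unstimulated (naïve), stimulated for 4 h (acute), or stimulated for 24 h, washed, rested and given the same ligand for another 4 h (re-stimulated). The ligands were LPS for TLR4 at 100 ng/ml, Poly(I:C), a synthetic double-stranded RNA, for TLR3 at 10 µg/ml, CpG DNA for TLR9, and the lipopeptide Pam3CSK4 for TLR2 at 100 ng/ml. For CpG the sample labels give 100 µM and the study's methods a lower concentration, and which was used is not settled here. Each group has 3 cultures. No group was sampled after the 24 h exposure and before the second dose. What lasted from the first exposure and what the second dose added can therefore not be told apart in re-stimulated cells. The study describes the cultures both as coming from different mice and as pools of marrow from several mice, so p-values measure the spread between these cultures only.

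Oligoadenylate synthetases are interferon-inducible enzymes of the cytoplasm that bind double-stranded RNA and then join ATP into short chains of adenylate with 2′-5′ linkages. These chains are second messengers of antiviral defence, which restricts the spread of a virus. Macrophages also carry TLR3, which meets double-stranded RNA in endosomes and drives interferon beta, and interferon beta in turn acts through its receptor on the promoters of these genes. Oas1a and Oas1g encode small synthetases with a single catalytic unit. Oas1b is the mouse gene of resistance to flaviviruses, and the C57BL/6 strain carries a disrupted copy. Oas2 and Oas3 encode larger synthetases built of repeated units. Oasl1 and Oasl2 encode proteins with ubiquitin-like domains at their ends, and Oasl1 has lost the synthetase activity and restrains translation of the mRNA for Irf7.

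All 11 probes lie on chromosome 5 in mm9, the build of the array file. The Oasl2 probe (A_51_P387123, chr5:115362168-115362227) and the Oasl1 probe (A_55_P2086433, chr5:115387861-115387920) lie in one cluster. The Oas2 probe (A_55_P2019719, chr5:121180343-121180402), the Oas3 probe (A_51_P472867, chr5:121203598-121203657) and the probes for the Oas1 genes lie in another. For Oas1a, A_55_P1998943 (chr5:121346735-121346794) lists transcripts of both Oas1a and Oas1g, and A_55_P1998942 (chr5:121348338-121348397) those of Oas1a alone. For Oas1g, A_55_P1998979 (chr5:121326271-121326330) also lists both genes, and A_55_P1998977 (chr5:121326151-121326210), which lists Oas1g alone, was not well above background on any of the 25 arrays used. Values named Oas1a or Oas1g may therefore hold signal from the other gene. Where a gene has several probes, the one with the highest mean is given unless another is named.

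Oas1b has 3 probes, whose readings part company in the results, so their first 30 bases are shown. Those of A_55_P1998962 (chr5:121274109-121274168) and A_55_P1959061 (chr5:121274126-121274185) overlap by 43 bases of the genome and share an exact run of 42, and A_55_P1959064 (chr5:121273890-121273949) lies apart from both. Only A_55_P1959064 lists a RefSeq transcript matched to Oas1b, and the overlapping pair lists none matched to a gene. Capitals mark the part of the shared run that falls in the bases shown.
A_55_P1998962: gtgataatggactgaactTCTGAACCTGTA
A_55_P1959061: gTCTGAACCTGTAAGCCAACCCCAATTAAA
A_55_P1959064: cagaaggagaatattatggtttgtatatgg

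Promoters are shown because members with like and unlike responses can be set side by side. RefSeq promoters (GRCm38.p6) were at hand for Oas1a, Oas1g, Oas3, Oasl1 and Oasl2, and each stretch runs from 120 bases before to 20 after the annotated start. On both strands of the table's longer window, 250 bases before to 50 after the start, 3 motifs were searched. They were the core of the interferon-stimulated response element (ISRE), which is GAAA, any 2 bases and GAAA again, the gamma-activated sequence TTCNNNGAA, and the kappaB consensus. Capitals mark ISRE core matches in Oas1a, Oas1g and Oas3 and kappaB matches in Oasl1.
Oas1a, minus strand of chr5:120907506-120907645: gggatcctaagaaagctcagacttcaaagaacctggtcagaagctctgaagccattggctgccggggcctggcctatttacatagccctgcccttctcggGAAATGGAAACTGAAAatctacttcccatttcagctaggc
Oas1g, minus strand of chr5:120887594-120887733: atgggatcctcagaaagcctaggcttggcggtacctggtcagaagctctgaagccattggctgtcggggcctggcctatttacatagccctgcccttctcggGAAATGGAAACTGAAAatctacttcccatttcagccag
Oas3, minus strand of chr5:120777640-120777779: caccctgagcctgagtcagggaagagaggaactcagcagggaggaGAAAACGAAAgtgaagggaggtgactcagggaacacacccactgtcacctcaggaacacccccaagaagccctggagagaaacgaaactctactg
Oasl1, plus strand of chr5:114923120-114923259: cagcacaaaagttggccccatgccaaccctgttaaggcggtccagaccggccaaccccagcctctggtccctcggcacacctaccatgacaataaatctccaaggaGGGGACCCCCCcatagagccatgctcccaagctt
Oasl2, plus strand of chr5:114896814-114896953: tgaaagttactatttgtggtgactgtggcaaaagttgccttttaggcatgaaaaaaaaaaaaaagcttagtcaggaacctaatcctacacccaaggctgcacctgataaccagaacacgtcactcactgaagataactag
The ISRE core stood in 3.44% of the 32851 promoters of the table, and in Oas1a and Oas1g it occurred 2 times as overlapping matches within the capitals. The Oas1a and Oas1g stretches share an exact run of 73 bases that holds both matches. TTCNNNGAA stood in 8.3% of promoters and matched Oas1a, and the kappaB consensus stood in 8.46% and matched Oas3, on the minus strand, and Oasl1, with 2 overlapping matches. The Oasl2 window held no match to any of them. These are matches of letters and not measured binding sites.

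The values are the authors' log2 signals. 25 of the 27 arrays have them. Replicate 3 of re-stimulated LPS and replicate 2 of acute Pam3CSK4 have none, which leaves 2 arrays in those groups. On the arrays used, 42.1 to 54.3% of probes were well above background, apart from naïve replicate 3 with 74.6%. The acute LPS arrays lay on separate slides from all other groups, with other scan days, and were read with an earlier design file, so in every comparison with acute LPS the ligand and the slide cannot be told apart. In the other groups each replicate number is 1 slide. All 8 macrophage markers were well above background on all 25 arrays, while of the markers of other cell types 2 of 6 for neutrophils, 2 of 4 for plasmacytoid dendritic cells, 1 of 4 for T cells, 1 of 3 for B cells, 1 of 4 for stroma and 0 of 3 each for NK cells and mast cells were. The other neutrophil markers were well above background on part of the 25 arrays: Ly6g on 16, Mpo on 16, Prtn3 on 14 and Ngp on 17. Their highest log2 values were 12.78, 11.47, 7.18 and 12.51 in that order. In bulk RNA, fewer expressing cells and less RNA per cell cannot be told apart.

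**Figure D1:**
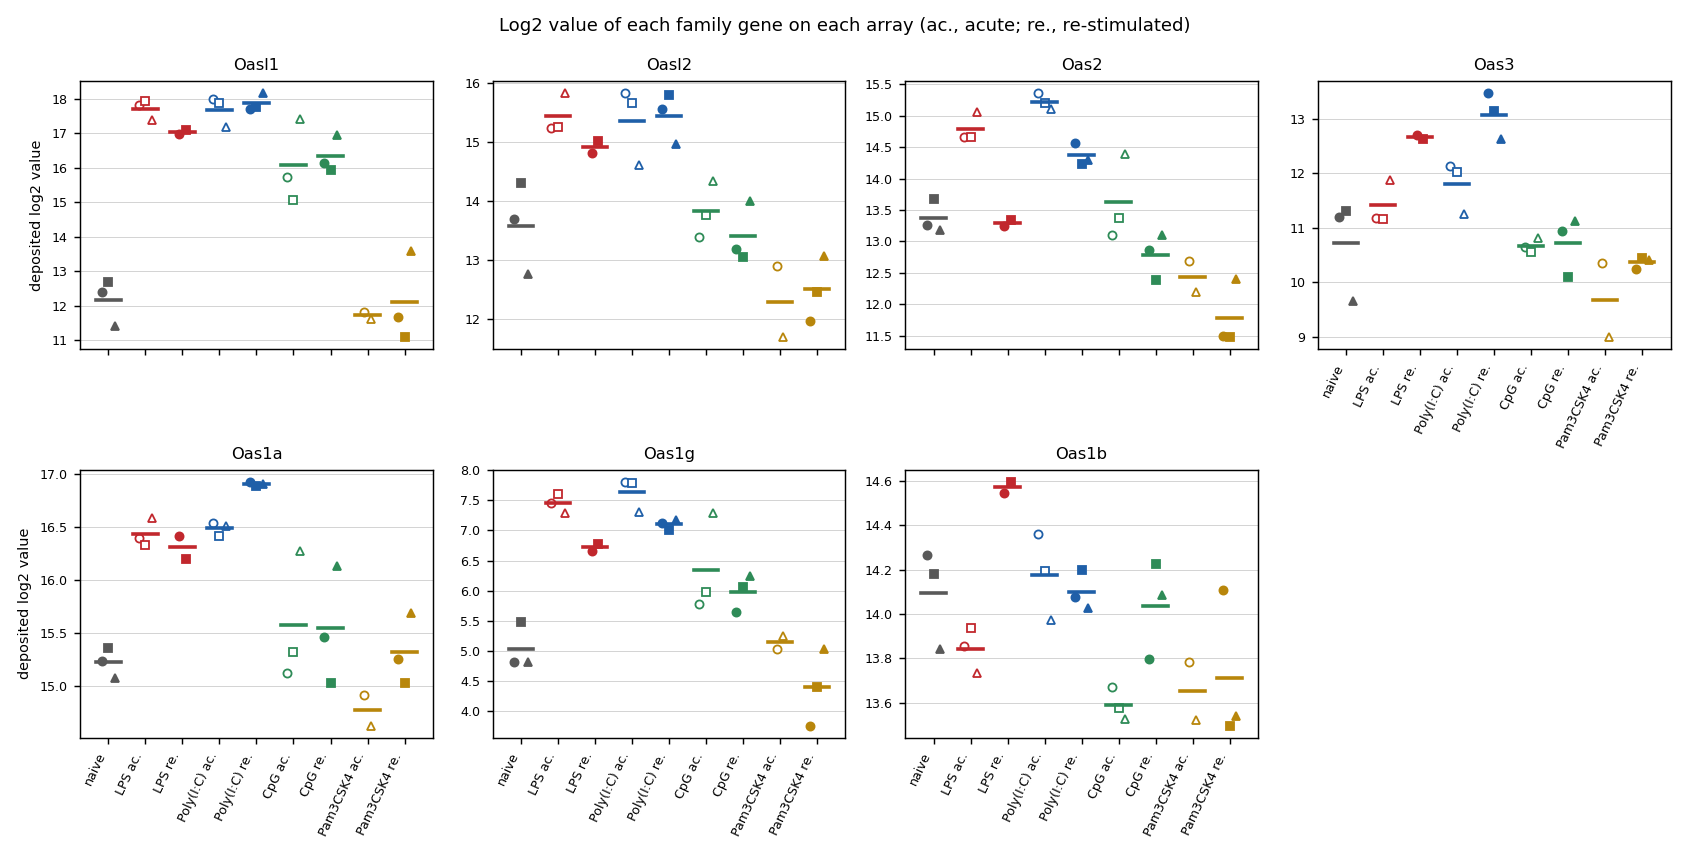
Each panel plots the deposited log2 value of a gene (vertical axis, one scale per panel) on each of the 25 arrays against the condition. Open symbols are acute and filled ones naïve or re-stimulated, circles, squares and triangles are replicates 1, 2 and 3, and lines are group means. Oasl1 lies between 11.08 and 13.59 in naïve and Pam3CSK4 cells and between 15.06 and 18.16 in all others.

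On first exposure, acute LPS raised 5 of the 7 genes (Oas1a, Oas1g, Oas2, Oasl1 and Oasl2) and Poly(I:C) raised 4 (Oas1a, Oas1g, Oas2 and Oasl1). A gene was called when its adjusted p was under 0.05 and its change at least 1.5-fold. For LPS 26.5% of all probes tested were called and 13.2% were called higher, and for Poly(I:C) the shares were 6.03% and 3.8%. CpG raised 1 member, Oasl1, where 5.72% of all probes were called in either direction. Pam3CSK4 changed 0 members, and 0% of all probes were called by limma, with 3458 probes at an unadjusted p under 0.05. Member medians were a log2 change of 1.42 for LPS, 1.78 for Poly(I:C), 0.25 for CpG and -0.45 for Pam3CSK4, against -0.01, -0.10, -0.07 and 0.01 over all probes tested. These 4 comparisons share the naïve arrays.

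Between the first and the second LPS exposure members were called in both directions. Oas2 and Oas1g fell, Oas3 rose, Oas1b rose on the probe with the highest mean and fell on another, and Oas1a, Oasl1 and Oasl2 did not pass the test, so 4 of 7 were called where 34.2% of all probes were (17.2% higher and 17% lower), and leaving out single arrays gave 1 to 5. In Poly(I:C)-treated cells 0 of 7 were called, where 4.93% of all probes were, but Oas2 and Oas3 lay near the threshold, as given below. CpG gave 0 of 7 (3.56% of all probes), and so did Pam3CSK4 (0% by limma, with 3461 probes at an unadjusted p under 0.05).

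Set against naïve cells, re-stimulated cells were higher in 5 members after Poly(I:C) (Oas1a, Oas1g, Oas2, Oas3 and Oasl1) and in 3 after LPS (Oas1a, Oas1g and Oasl1). The shares of all probes called were 9.03% for Poly(I:C), with 4.79% higher, and 5.66% for LPS, with 3.27% higher. CpG left 1 member higher, Oasl1 (13.1% of all probes called in either direction). Pam3CSK4 left 1 member lower, Oas2 (5.36% of all probes called in either direction). Member medians were 1.87, 1.33, 0.00 and -0.38 in that order of ligands.

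**Figure D2:**
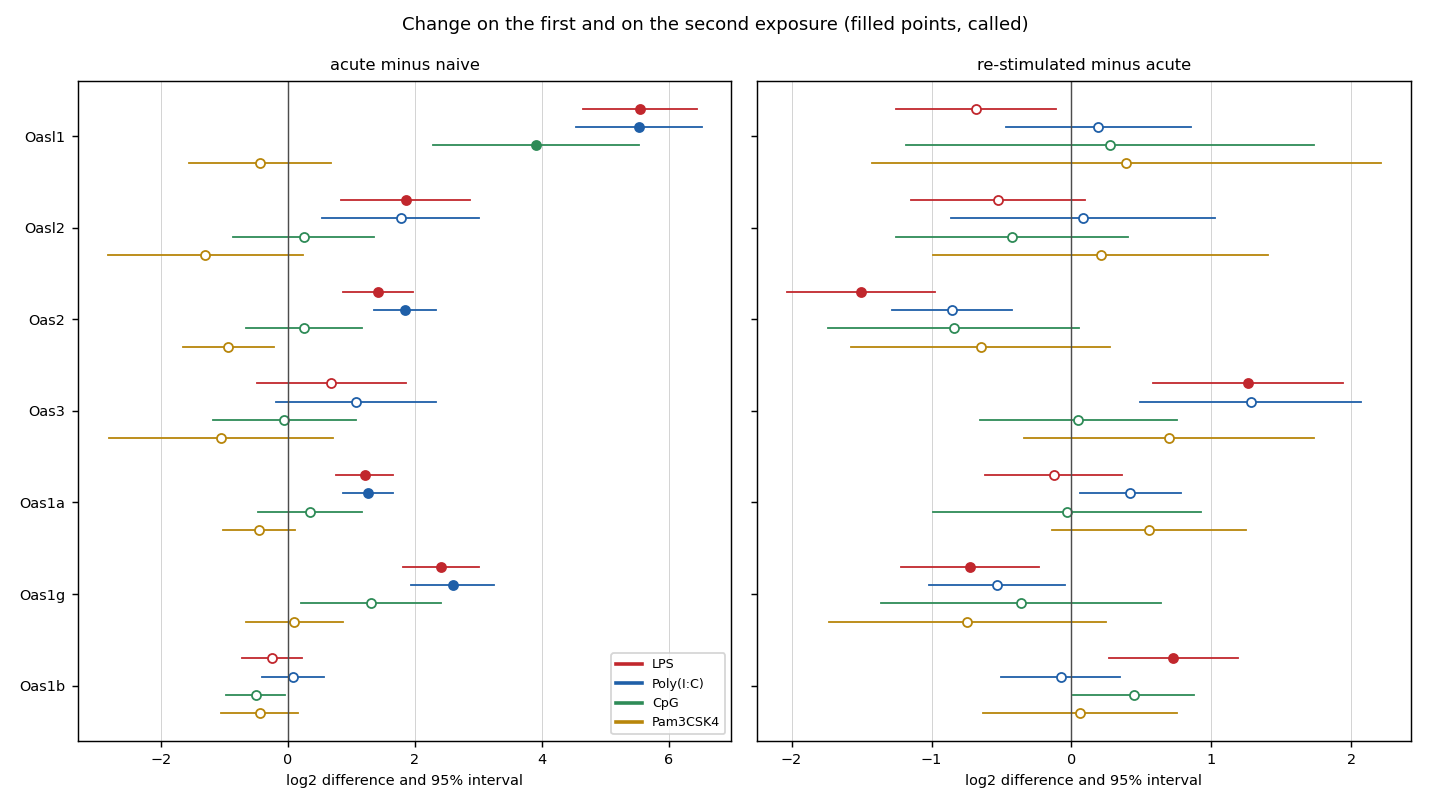
Points are log2 differences of group means from limma and lines their 95% intervals, for each gene and ligand, with acute minus naïve on the left and re-stimulated minus acute on the right. Colours mark the ligand in both panels, and filled points passed an adjusted p of 0.05 and 1.5-fold. The Oasl1 changes of 5.55 (LPS), 5.53 (Poly(I:C)) and 3.91 (CpG) stand at the far right of the first panel, and in the second Oas3 rises with LPS while Oas2 falls.

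Oasl1 had the largest changes of the family. In naïve cells it read 12.40, 12.67 and 11.39. It read 17.82, 17.92 and 17.38 after acute LPS and 16.97 and 17.09 after re-stimulation with LPS. Poly(I:C) gave 17.98, 17.89 and 17.18 acutely and 17.69, 17.77 and 18.16 on re-stimulation. All LPS and Poly(I:C) arrays were far above the naïve arrays. The acute rise was 46.9-fold for LPS (log2 5.55, SE 0.37, adjusted p = 0.000607) and 46.2-fold for Poly(I:C) (log2 5.53, SE 0.41, adjusted p = 0.00343). On the second exposure it stood 29.3-fold above naïve for LPS (adjusted p = 0.0150) and 52.7-fold for Poly(I:C) (adjusted p = 0.00299). The LPS value was 0.68 lower than in acute cells on the log2 scale without overlap between the arrays, and did not pass the test (log2 -0.68, SE 0.24, adjusted p = 0.0689). It was called in 3 of 17 alternatives. These were without acute LPS replicate 3 (adjusted p = 0.0212), with the replicate number as a block (0.0310) and with normexp background correction (0.0381). The block gave the same change as leaving out acute LPS replicate 3 (log2 -0.84), since re-stimulated LPS has no replicate 3. The LPS call against naïve cells on the second exposure was lost without naïve replicate 1 or 2 or either LPS array (adjusted p from 0.0515 to 0.190).

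CpG raised Oasl1 as well, to 15.73, 15.06 and 17.41 acutely and to 16.13, 15.94 and 16.96 on re-stimulation. Replicate 3 was the highest CpG array at both times, in acute cells within the range of the acute LPS arrays, and all 6 CpG arrays were above all naïve arrays. The change from naïve was 15.04-fold acutely (log2 3.91, SE 0.67, adjusted p = 0.0313) and 18.2-fold on re-stimulation (log2 4.19, SE 0.43, adjusted p = 0.00671). The acute call was lost with the replicate number as a block (adjusted p = 0.0860), and without naïve or acute CpG replicate 1 or 2 (adjusted p from 0.0836 to 0.110). Without acute CpG replicate 3 the change was 3.24. Pam3CSK4 gave 11.82 and 11.62 acutely and 11.67, 11.08 and 13.59 on re-stimulation, within or around the naïve range. From highest to lowest mean the order was Poly(I:C) re-stimulated, LPS acute, Poly(I:C) acute, LPS re-stimulated, CpG re-stimulated, CpG acute, naïve, Pam3CSK4 re-stimulated and Pam3CSK4 acute. Neighbours in this order overlapped except on either side of LPS re-stimulated and between CpG acute and naïve.

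Oasl2 rose with acute LPS and was higher on every Poly(I:C) array than on any naïve one. It read 13.69, 14.30 and 12.76 in naïve cells. After acute LPS it read 15.23, 15.26 and 15.83, and after re-stimulation 14.82 and 15.01. After Poly(I:C) it read 15.83, 15.66 and 14.60 acutely and 15.57, 15.81 and 14.97 on re-stimulation. No LPS or Poly(I:C) array overlapped the naïve range, in which replicate 3 was the lowest. Acute LPS raised it 3.63-fold (log2 1.86, SE 0.42, adjusted p = 0.0222), a call lost without naïve replicate 1 or any 1 of the LPS arrays (adjusted p from 0.0559 to 0.0724). Acute Poly(I:C) gave a log2 change of 1.78 that missed the threshold (SE 0.50, adjusted p = 0.104) and passed it with the replicate number as a block (adjusted p = 0.0429). Re-stimulated Poly(I:C) cells gave 1.87 (SE 0.44, adjusted p = 0.0556), again passing with the block (adjusted p = 0.0359). Without naïve replicate 3 that change was 1.45 (adjusted p = 0.0492). CpG arrays read 13.39, 13.77 and 14.34 acutely and 13.18, 13.05 and 13.99 on re-stimulation, and overlapped the naïve arrays at both times. Pam3CSK4 arrays, at 12.89 and 11.68 acutely and 11.97, 12.45 and 13.07 on re-stimulation, reached from below the naïve range into it.

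Oas2 rose on first exposure to LPS and Poly(I:C), and fell between the LPS exposures. It read 13.26, 13.68 and 13.18 in naïve cells. With LPS it went from 14.66, 14.67 and 15.06 in acute cells to 13.24 and 13.34 in re-stimulated cells. With Poly(I:C) it went from 15.36, 15.20 and 15.11 to 14.57, 14.24 and 14.29. The re-stimulated LPS arrays thus lay inside the naïve range, whereas those of Poly(I:C) lay between naïve and acute without overlap. The acute rise was 2.68-fold for LPS (log2 1.42, SE 0.23, adjusted p = 0.00723) and 3.61-fold for Poly(I:C) (log2 1.85, SE 0.20, adjusted p = 0.0100). Leaving out naïve replicate 1 or Poly(I:C) replicate 1 or 2 ended the latter call (adjusted p from 0.0533 to 0.0652). On the second exposure LPS cells were 2.84-fold lower than acute ones (log2 -1.51, SE 0.22, adjusted p = 0.00428). For Poly(I:C) the log2 change was -0.85 (SE 0.18, adjusted p = 0.0507), and with the replicate number as a block it was called (adjusted p = 0.0496). Re-stimulated Poly(I:C) cells remained above naïve cells by 2.00-fold (adjusted p = 0.0420), a call lost with the block (adjusted p = 0.0828) and without any 1 of the 6 arrays (adjusted p from 0.0564 to 0.147).

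The 2 other ligands did not raise Oas2. CpG arrays read 13.10, 13.38 and 14.40 acutely and 12.87, 12.39 and 13.09 on re-stimulation. Pam3CSK4 arrays read 12.68 and 12.19 acutely and 11.49, 11.47 and 12.40 on re-stimulation. The acute CpG arrays spanned the naïve range and the re-stimulated ones lay just below it, while all Pam3CSK4 arrays lay below it. Re-stimulated Pam3CSK4 cells were 3.00-fold below naïve cells (log2 -1.59, SE 0.32, adjusted p = 0.0469), the only member called lower than in naïve cells in any of the 8 comparisons with them. With the replicate number as a block that call was lost (adjusted p = 0.0887), and without naïve replicate 1 or 2 or Pam3CSK4 re-stimulated replicate 1 or 2 it was lost too (adjusted p from 0.139 to 0.162).

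Oas3 behaved the other way round. It read 11.20, 11.30 and 9.65 in naïve cells, with replicate 3 well below the others. With LPS it read 11.18, 11.16 and 11.88 in acute cells and 12.70 and 12.63 in re-stimulated cells. With Poly(I:C) it read 12.12, 12.02 and 11.24 in acute cells and 13.47, 13.13 and 12.63 in re-stimulated cells. Acute arrays of both ligands overlapped the naïve range and all re-stimulated arrays were above both. The acute log2 changes were 0.69 for LPS (SE 0.49, adjusted p = 0.331) and 1.08 for Poly(I:C) (SE 0.51, adjusted p = 0.292), and without naïve replicate 3 they were 0.16 and 0.54. Between the exposures LPS cells rose 2.40-fold (log2 1.26, SE 0.28, adjusted p = 0.0173), a call lost without acute replicate 2 or either re-stimulated array (adjusted p from 0.0582 to 0.0809). For Poly(I:C) the change was of like size (log2 1.28, SE 0.33, adjusted p = 0.0747) and was called with the replicate number as a block (adjusted p = 0.0393) or without re-stimulated replicate 3 (adjusted p = 0.0472). The difference between these changes, Poly(I:C) minus LPS, was 0.02 with a 95% interval from -1.28 to 1.31.

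Set against naïve cells, Oas3 was 5.12-fold higher in re-stimulated Poly(I:C) cells (log2 2.36, SE 0.50, adjusted p = 0.0418). The call was lost without naïve replicate 1 or 2 or any 1 of the Poly(I:C) arrays (adjusted p from 0.0581 to 0.145), and without naïve replicate 3 it was kept at 1.82. In re-stimulated LPS cells the log2 change of 1.95 was not called (SE 0.56, adjusted p = 0.111). Without naïve replicate 3 it was 1.42 and called (adjusted p = 0.0113). With the slide, here the same as the replicate number, as a block it was also called (1.42, adjusted p = 0.0244). Both settings take the change from the same arrays, since re-stimulated LPS has no replicate 3. CpG arrays read 10.65, 10.55 and 10.81 acutely and 10.94, 10.09 and 11.12 on re-stimulation, and Pam3CSK4 arrays 10.34 and 8.99 and then 10.25, 10.45 and 10.40. All lay within the naïve range but the acute Pam3CSK4 array at 8.99. Without naïve replicate 3, re-stimulated Pam3CSK4 cells were called lower than naïve ones (log2 -0.88, adjusted p = 0.0349).

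Oas1a rose and stayed high. The probe read 15.24, 15.36 and 15.07 in naïve cells. LPS gave 16.40, 16.33 and 16.59 acutely and 16.42 and 16.21 on re-stimulation. Poly(I:C) gave 16.54, 16.42 and 16.51 acutely and 16.93, 16.89 and 16.91 on re-stimulation, where the arrays were closer together than in any other group. All LPS and Poly(I:C) arrays were above the naïve ones. The acute change was 2.32-fold for LPS (log2 1.21, SE 0.18, adjusted p = 0.00615) and 2.40-fold for Poly(I:C) (log2 1.26, SE 0.16, adjusted p = 0.0150). Leaving out naïve or Poly(I:C) replicate 1 or 2 ended the latter call (adjusted p from 0.0614 to 0.0864). On the second exposure the change from naïve was 2.12-fold for LPS (adjusted p = 0.0492) and 3.22-fold for Poly(I:C) (adjusted p = 0.00783), the former lost without naïve replicate 1 or 2 or either LPS array (adjusted p from 0.149 to 0.270). The step from acute to re-stimulated Poly(I:C), 0.42 on the log2 scale, had no overlap between arrays and did not pass the test (SE 0.15, adjusted p = 0.144).

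With CpG, Oas1a read 15.12, 15.33 and 16.28 acutely and 15.46, 15.03 and 16.14 on re-stimulation, so replicate 3 was near the LPS range and the other arrays near the naïve one. With Pam3CSK4 it read 14.92 and 14.63 acutely, below all naïve arrays, and 15.25, 15.03 and 15.70 on re-stimulation. The probe that lists Oas1a alone followed it, with a correlation of 0.99 over the 9 group means, and its acute log2 change was 1.30 for LPS (adjusted p = 0.0176) and 1.30 for Poly(I:C) (adjusted p = 0.0222).

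Oas1g, read by a probe that also lists Oas1a, rose on first exposure and fell between the LPS exposures. It read 4.81, 5.48 and 4.81 in naïve cells. After LPS it read 7.45, 7.61 and 7.28 acutely and 6.66 and 6.78 on re-stimulation. After Poly(I:C) it read 7.81, 7.79 and 7.30 and then 7.13, 7.00 and 7.17. With both ligands the re-stimulated arrays were below all acute ones and above all naïve ones. The acute change was 5.32-fold for LPS (log2 2.41, SE 0.25, adjusted p = 0.00193) and 6.06-fold for Poly(I:C) (log2 2.60, SE 0.27, adjusted p = 0.00908), the latter lost without Poly(I:C) replicate 1 or 2 (adjusted p = 0.0581 and 0.0609). With normexp background correction these changes were 1.24 and 1.38 and still called. The fall to re-stimulated cells was 1.65-fold and called for LPS (log2 -0.73, SE 0.20, adjusted p = 0.0363), though not without acute replicate 1 or 2 or either re-stimulated array (adjusted p from 0.0939 to 0.153), and not called for Poly(I:C) (log2 -0.53, SE 0.20, adjusted p = 0.161). Re-stimulated cells were still 3.22-fold (LPS, adjusted p = 0.0430) and 4.19-fold (Poly(I:C), adjusted p = 0.0104) above naïve cells. On the log2 scale these are 1.69 and 2.07, and with normexp background correction they were 0.73 and 0.99 and still called. The LPS call was lost without naïve replicate 1 or 2 or either LPS array (adjusted p from 0.0714 to 0.288) and with scaling to the 75th percentile (log2 0.96, adjusted p = 0.0998), and the Poly(I:C) call without Poly(I:C) replicate 1 or 2 (adjusted p = 0.0599 and 0.0519).

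With CpG, Oas1g read 5.78, 5.98 and 7.28 acutely and 5.64, 6.07 and 6.25 on re-stimulation, all above the naïve arrays. The changes of 1.31 (SE 0.45, adjusted p = 0.155) and 0.95 (SE 0.27, adjusted p = 0.0711) did not pass the test. With Pam3CSK4 it read 5.03 and 5.25 acutely, inside the naïve range. In re-stimulated Pam3CSK4 cells it read 3.76, 4.40 and 5.03 and was well above background on 1 of 3 arrays.

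Oas1b gave different answers from its 3 probes. The probe with the highest mean, A_55_P1998962, read 14.26, 14.18 and 13.84 in naïve cells, 13.86, 13.94 and 13.73 after acute LPS and 14.55 and 14.60 after re-stimulation. Its arrays overlapped between naïve and acute LPS, and the re-stimulated LPS arrays were the highest of all 25. It was 1.66-fold higher in re-stimulated than in acute LPS cells (log2 0.73, SE 0.19, adjusted p = 0.0298), a call lost without acute replicate 1 or 2 or either re-stimulated array (adjusted p from 0.0808 to 0.134). Acute Poly(I:C) cells, at 14.36, 14.19 and 13.97, overlapped the naïve range (log2 change 0.08, SE 0.20, adjusted p = 0.847), as did the re-stimulated ones at 14.08, 14.20 and 14.03. CpG arrays read 13.67, 13.58 and 13.53 acutely, all below the naïve range, and 13.80, 14.22 and 14.09 on re-stimulation.

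The probe A_55_P1959064, which lies at lower coordinates than the overlapping pair, read 9.07, 9.42 and 9.10 in naïve cells. It read 11.05, 11.14 and 11.80 after acute LPS and 9.62 and 10.19 after re-stimulation. Poly(I:C) gave 11.42, 11.31 and 11.50 and then 11.15, 11.10 and 10.82. On this probe all LPS and Poly(I:C) arrays were above the naïve ones, and the LPS arrays fell back on the second exposure. The acute log2 change was 2.13 for LPS (SE 0.26, adjusted p = 0.00318) and 2.21 for Poly(I:C) (SE 0.18, adjusted p = 0.00423). In re-stimulated Poly(I:C) cells the probe read 1.83 above naïve cells on the log2 scale (adjusted p = 0.00874). From acute to re-stimulated LPS it fell by 1.42 on the log2 scale (SE 0.32, adjusted p = 0.0175), the opposite direction to A_55_P1998962. Pam3CSK4 arrays on this probe, at 8.63 and 8.25 acutely and 7.71, 7.64 and 8.55 on re-stimulation, all lay below the naïve range.

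The third probe, A_55_P1959061, shares most of its bases with A_55_P1998962 and followed A_55_P1959064 in direction. Over the 9 group means it correlated with A_55_P1959064 at 0.97 and with A_55_P1998962 at 0.46. It read 12.59, 12.65 and 12.14 in naïve cells, 12.99, 13.06 and 13.12 after acute LPS and 12.39 and 12.65 after re-stimulation. The acute LPS arrays were above the naïve and the re-stimulated LPS arrays. Neither the rise with LPS (log2 0.60, SE 0.21, adjusted p = 0.0774) nor the fall (log2 -0.54, SE 0.20, adjusted p = 0.0799) passed the test. No direction is given for Oas1b as a gene, whose counts use A_55_P1998962. Of its probes only A_55_P1959064 lists a RefSeq transcript matched to Oas1b.

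**Figure D3:**
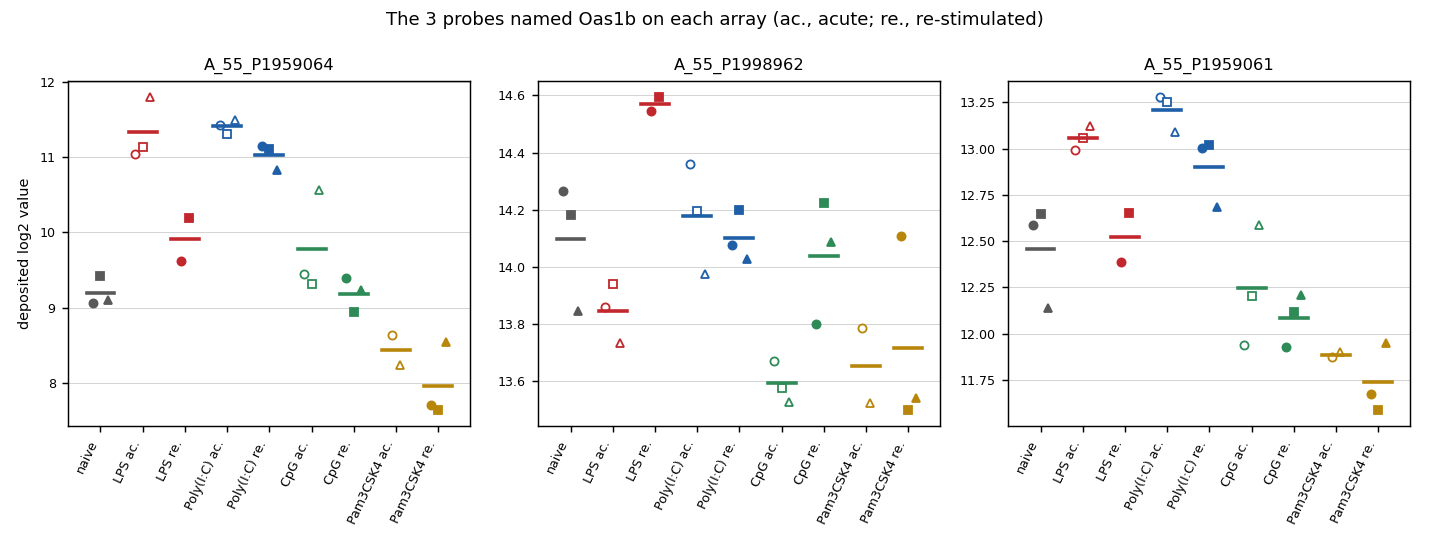
The panels plot the deposited log2 value of each of the 3 Oas1b probes on each array by condition, with symbols as in the plot of all members and lines at group means. For LPS, A_55_P1959064 goes from 11.05, 11.14 and 11.80 in acute cells down to 9.62 and 10.19 in re-stimulated cells, while A_55_P1998962 goes up, from 13.86, 13.94 and 13.73 to 14.55 and 14.60.

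Whether the step from acute to re-stimulated cells differed between ligands was tested, as a contrast of contrasts in a fit of all 9 groups. No member was called for Poly(I:C) minus CpG (0.0396% of all probes called), Poly(I:C) minus Pam3CSK4 (0.141%), CpG minus Pam3CSK4 (0.00378%) or Poly(I:C) minus LPS (4.09%). The smallest adjusted p of a member was 0.0883, for Oas1b on A_55_P1998962 in Poly(I:C) minus LPS (log2 -0.80, 95% interval -1.35 to -0.26). For Oas2 the same difference was 0.65 with an interval from -0.29 to 1.59, which includes both no difference and a fall more than 1 log2 unit smaller with Poly(I:C) than with LPS.

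Ligands were also compared with one another among cells at the same time. In acute cells Poly(I:C) stood above Pam3CSK4 in 4 members, Oas1a, Oas1g, Oas2 and Oasl1, where 2.42% of all probes were called and 2.13% higher. The log2 differences were 1.72, 2.49, 2.79 and 5.97 with adjusted p from 0.0159 to 0.0228. All 4 calls were lost with the replicate number as a block (adjusted p from 0.0589 to 0.0858), a fit that leaves 2 pairs. Without Poly(I:C) replicate 1 or 2 or Pam3CSK4 replicate 3 all 4 were lost, and without Pam3CSK4 replicate 1 all but Oasl1 (adjusted p from 0.0520 to 0.138). Without Poly(I:C) replicate 3, Oasl2 was called too (log2 3.46, adjusted p = 0.0424). With all arrays Oas1b was called higher on A_55_P1959064 (log2 2.97, adjusted p = 0.0159) and on A_55_P1959061. Acute Poly(I:C) against CpG gave 0 calls (0.173% of all probes), and 6 of the 7 members did not overlap, where 18.8% of all probes did not (9.35% with Poly(I:C) higher). CpG replicate 3 was the highest acute CpG array for 6 members, all but Oas1b on A_55_P1998962. Without it 4 members were called higher with Poly(I:C): Oas2 (log2 1.98, adjusted p = 0.0194), Oas1g (1.76, adjusted p = 0.0313), Oas1a (1.27, adjusted p = 0.0348) and Oasl1 (2.29, adjusted p = 0.0391). Without Poly(I:C) replicate 3, Oas3 was called (1.40, adjusted p = 0.0355). Acute CpG against Pam3CSK4 gave 0 calls by limma (0% of all probes, with 882 at an unadjusted p under 0.05). Oasl1 was 4.35 higher with CpG on the log2 scale, without overlap, and was called in 3 of 17 alternatives. These were median scaling (adjusted p = 0.0001), 1 fit of 9 groups (0.00915) and the slide as a random block (0.00339).

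In re-stimulated cells Poly(I:C) stood above Pam3CSK4 in 6 of 7 members, all but Oas1b on A_55_P1998962, where 4.11% of all probes were called and 3.24% higher. On A_55_P1959064 Oas1b was called higher as well (log2 3.06, adjusted p = 0.00422), and so it was on A_55_P1959061. The differences ran from 1.58 for Oas1a (adjusted p = 0.0136) through 2.58 for Oas2 (adjusted p = 0.00785) and 2.71 for Oas3 (adjusted p = 0.00404) to 5.76 for Oasl1, which was 54.3-fold (adjusted p = 0.00659) and 6.50 on the log2 scale without Pam3CSK4 replicate 3. With the replicate number as a block Oas1a (adjusted p = 0.0537) and Oasl2 (adjusted p = 0.0559) were no longer called, and Oas1a was not called without replicate 1 or 2 of either group (adjusted p from 0.0557 to 0.0718). Against CpG, Poly(I:C) was higher in 4 members, Oas1g, Oas2, Oas3 and Oasl2, where 2.47% of all probes were called and 1.9% higher. Oas3 differed most, by 5.12-fold (log2 2.36, SE 0.34, adjusted p = 0.0304). All 4 calls were lost with the block (adjusted p from 0.0696 to 0.101) and also without CpG re-stimulated replicate 1 or 2 or Poly(I:C) re-stimulated replicate 1 or 2 (adjusted p from 0.0966 to 0.178), and those of Oas1g and Oas3 without CpG replicate 3 (adjusted p = 0.0660 and 0.0521). Oas1a and Oasl1 were called without CpG replicate 3 (adjusted p = 0.0438 and 0.0413) and without Poly(I:C) replicate 3 (adjusted p = 0.0469 and 0.0420). With all arrays Oas1b was called on A_55_P1959064, higher with Poly(I:C) (log2 1.84, adjusted p = 0.0181).

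Between the ligands that raised most members, Poly(I:C) and LPS, re-stimulated cells showed 0 calls (0.957% of all probes). Oas2 was 1.08 higher with Poly(I:C) on the log2 scale (95% interval 0.59 to 1.57, adjusted p = 0.0915) and Oasl1 0.85 higher (interval 0.30 to 1.40, adjusted p = 0.192), in both cases without overlap. For Oas3 the difference was 0.41 with an interval from -0.31 to 1.13. LPS against CpG also gave 0 calls (0.316% of all probes). All members were higher with LPS, by 0.50 to 1.95 on the log2 scale (median 0.74, against -0.0003 over all probes). With normexp background correction Oas3 was called there (1.92, adjusted p = 0.0484). LPS against Pam3CSK4 gave 1 call, Oas3 (0.909% of all probes), which was 4.93-fold higher with LPS (log2 2.30, SE 0.18, adjusted p = 0.0174). In this last pair all 7 members were without overlap, as were 36% of all probes (17% with LPS higher). The Oas3 call was lost without Pam3CSK4 re-stimulated replicate 1 or 2 or either LPS array (adjusted p from 0.0693 to 0.222), and without Pam3CSK4 replicate 3 there were 5 calls, the others being Oas1g, Oas2, Oasl1 and Oasl2. With the slide as a block, which gives the same changes as leaving out Pam3CSK4 replicate 3, there were 4. They were Oas3 with Oas1g, Oasl1 and Oasl2 (adjusted p = 0.0393, 0.0279 and 0.0335). CpG against Pam3CSK4 gave 0 calls by limma (0% of all probes, 1089 having an unadjusted p under 0.05). Oasl1 was called there with the replicate block, or without Pam3CSK4 re-stimulated replicate 3, higher with CpG (log2 4.23, adjusted p = 0.0347, and 4.97, adjusted p = 0.0223).

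**Figure D4:**
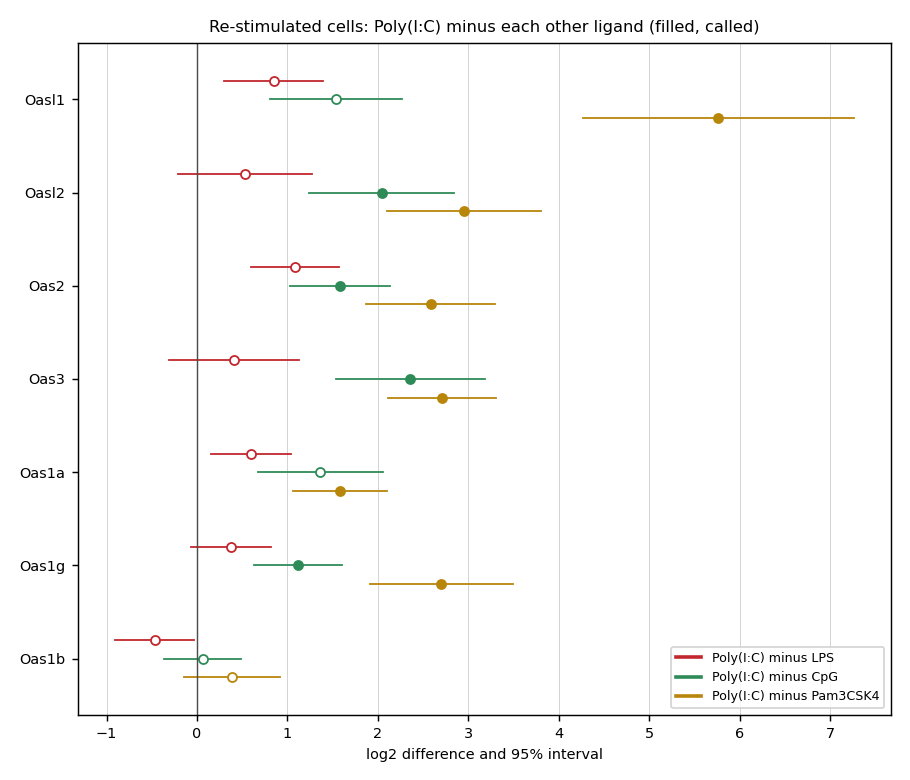
Points are log2 differences of re-stimulated Poly(I:C) cells from cells re-stimulated with LPS, CpG or Pam3CSK4, with 95% intervals from limma, and filled points were called. The differences from Pam3CSK4 are called in 6 family genes, those from CpG in 4 and those from LPS in none, where the Oas3 interval runs from -0.31 to 1.13.

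A list of 5 other genes tied to 2′-5′ oligoadenylates or to antiviral defence was read beside the family. Abce1, an ATP-binding protein of ribosome recycling, and Pde12, which degrades 2′-5′ oligoadenylates, were not called against naïve cells in any of the 8 stimulated groups. Zc3hav1, an antiviral zinc finger protein, rose with acute LPS (log2 1.01, adjusted p = 0.0211) and with Poly(I:C) (1.34, adjusted p = 0.0125). Samhd1, a dNTP hydrolase, rose as well, by 1.22 for both ligands (adjusted p = 0.00761 and 0.0240). Both fell between the LPS exposures, Samhd1 by 0.84 (adjusted p = 0.0246) and Zc3hav1 by 1.05 (adjusted p = 0.0370). Akap7, which has a phosphodiesterase-like domain, rose between the Poly(I:C) exposures (log2 1.41, adjusted p = 0.0312), where 4.93% of all probes were called. Of the 5, 2 were called higher after acute LPS (13.2% of all probes) and 2 after acute Poly(I:C) (3.8%), with list medians of 0.76 and -0.04, and 2 were called lower between the LPS exposures (17%).

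Of 5 further mouse Oas genes, 4 were tested. Oas1f rose after acute LPS (log2 1.59, adjusted p = 0.00430), acute Poly(I:C) (1.27, adjusted p = 0.0203) and re-stimulated Poly(I:C) (1.72, adjusted p = 0.00925). In that order 13.2%, 3.8% and 4.79% of all probes were called higher. Oas1d and Oas1e rose between the LPS exposures (log2 1.31, adjusted p = 0.0150, and 0.96, adjusted p = 0.0288), where 17.2% of all probes were called higher. This was also the direction of Oas3. These genes are near-identical in part, and their probes may share signal.

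Of 9 other sensors of double-stranded RNA and their adaptors, 6 were called higher and 1 lower (Mavs, the adaptor of the cytoplasmic helicases) after acute LPS, where 26.5% of all probes were called and 13.2% higher. After acute Poly(I:C) 6 were called higher (3.8% of all probes higher), after acute CpG 1 lower (5.72% called in either direction) and after acute Pam3CSK4 0. Ifih1, the helicase MDA5, rose by 4.65 on the log2 scale with LPS (adjusted p = 0.000349) and by 4.19 with Poly(I:C) (adjusted p = 0.00768). Eif2ak2, the kinase PKR, rose by 2.80 (adjusted p = 0.000990) and 2.73 (adjusted p = 0.00254). Tlr3, the receptor for Poly(I:C), rose by 4.93 with LPS (adjusted p = 0.00568), and its change of 3.80 with Poly(I:C) did not pass (adjusted p = 0.05004). Between the LPS exposures 4 fell and 1 rose, where 34.2% of all probes were called. Tlr3 fell by 3.85, Ifih1 by 3.25, Eif2ak2 by 2.22 and Ddx58 (RIG-I) by 1.13, and Zbp1, a sensor of Z-form nucleic acid, rose by 1.07. Between the Poly(I:C) exposures 1 fell, Eif2ak2, by 1.65 (adjusted p = 0.0271), where 4.93% of all probes were called.

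Of 18 interferon ligand and signalling genes, 17 were tested in these comparisons. After acute LPS 10 were called higher and 1 lower (26.5% of all probes called). After acute Poly(I:C) 6 were called higher (6.03% of all probes called, 3.8% higher). After acute CpG 4 were called higher (5.72% of all probes called in either direction). Ifnb1, which encodes interferon beta, rose with all 3 of these ligands, to means of 13.33 with LPS, 11.63 with Poly(I:C) and 9.87 with CpG from 3.00 in naïve cells, where 1 of 3 arrays was well above background. Between the LPS exposures 9 fell and 3 rose (17% and 17.2% of all probes). Ifnb1 fell by 4.45, and the receptor genes Ifnar1 (log2 2.25) and Ifnar2 (1.02) and the interferon regulatory factor Irf7 (2.22, adjusted p = 0.00282) rose. Between the Poly(I:C) exposures Irf7 rose (2.05, adjusted p = 0.0424) and Irf1, another such factor, fell by 1.79 (adjusted p = 0.0371), where 4.93% of all probes were called.

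Across the 9 group means the members followed one another to different degrees. Each member's correlation with the mean of the other 6 was 0.98 for Oasl2, 0.94 for Oas1a, 0.90 for Oas1g, 0.89 for Oasl1, 0.87 for Oas3, 0.79 for Oas2 and 0.53 for Oas1b on A_55_P1998962. Between single members, Oas2 and Oas3 correlated at 0.60. Of 16022 other genes, the 10 whose group means were most like the family mean were LOC236220 (0.98), Tcstv3 (0.98), D14Ertd668e (0.98), Xaf1 (0.97), Sp100 (0.97), BC094916 (0.97), Phf11 (0.97), Snw1 (0.97), Gm6904 (0.97) and Parp11 (0.97). The points of these correlations are 9 conditions that share slides and normalization, and they are given as a description.

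Summed signals of the marker lists (log2 of the sum) also moved in comparisons with called members. The sums are of linear signals, so the gene with the highest signal weighs most. For plasmacytoid dendritic cells that is Siglech, at a mean log2 of 15.83, with Tcf4 at 10.85, Ly6d at 3.63 and Klk1 at 2.75. For T cells it is Cd3e, at 9.64, with the others at 2.67 to 3.15. Of 12 such comparisons between groups, the groups did not overlap in 6 for the 8 macrophage markers, 6 for the 4 stroma markers, 5 for the 4 plasmacytoid dendritic cell markers, 4 for B cells, 2 each for neutrophils and NK cells, 1 for T cells and 0 for mast cells. With 2 or 3 arrays a group, lack of overlap is common. Between re-stimulated Pam3CSK4 and LPS, 36% of all probes did not overlap, and for the rest of these comparisons that share was not computed. Between acute and re-stimulated LPS all lists but that of mast cells were without overlap. There 34.2% of all probes were called, and ligand and slide cannot be told apart. Neutrophil markers were at 11.5 to 12.2 and then 13.3 to 14.0, stroma markers at 6.43 to 7.73 and then 8.88 to 9.50, and macrophage markers at 19.01 to 19.19 and then 19.58 to 19.63. The macrophage markers were lower in acute LPS, acute Poly(I:C) and re-stimulated Poly(I:C) than in naïve cells (19.56 to 19.61), where they read 19.01 to 19.19, 19.48 to 19.55 and 19.08 to 19.47. The stroma markers were higher in re-stimulated LPS and Poly(I:C) cells (8.50 to 8.80) than in naïve cells (6.71 to 8.21), and the plasmacytoid dendritic cell markers lower in all 4 re-stimulated groups (14.91 to 16.04) than in naïve cells (16.25 to 16.34). B cell markers were higher in acute LPS (6.68 to 7.23) and Poly(I:C) cells (6.75 to 8.03) than in naïve ones (5.67 to 6.56). Re-stimulated LPS cells were above Pam3CSK4 cells in neutrophil (11.8 to 12.8) and stroma markers (7.56 to 7.83). The part of these lists in the changes of the members was not tested.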

How the data were processed

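RNA of BMDM cultures was labelled with Cy3 and hybridised to 1-colour Agilent mouse arrays. The authors deposited unnormalized scanner intensities per spot, and a table of log2 values made with limma from RMA background correction and quantile normalization, which is used here. The intensities served detection calls (probe marked well above background by the scanner software) and the alternative scalings. Quantile normalization forces like distributions on all arrays, so changes are relative to the array as a whole. Names, positions (mm9) and listed transcripts are those of the array file, and 2 named value columns were empty and not used.

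With R 4.3.3, data.table (version 1.17.8) and limma 3.58.1, a 2-group linear model with empirical Bayes moderation was fitted for each comparison to the probes that were well above background on 2 or more arrays of one of its groups, with Benjamini-Hochberg adjustment over all probes tested. Every adjusted p is from limma. Differences between changes were contrasts in 1 fit of 9 groups. All 7 genes passed the filter (10 of 11 probes). Files and groups came from the sample labels. Members and lists were chosen with earlier results of these data known. The fit was tested on simulated data, and 1 gene of a list is not reported here.

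The replicate number was checked as a pairing. Same-numbered arrays deviated from the group mean together, with correlations over 0.1 in every pair of arrays among naïve, CpG, Poly(I:C) and Pam3CSK4 groups (0.12 to 0.71), and there the numbers are also slides. In comparisons with LPS groups at least 1 pair was under 0.1. Re-stimulated LPS arrays share their slides with the same-numbered arrays of the other groups, so the block is given there as a slide block, and acute LPS arrays share none. Alternatives were other scalings, all 27 arrays, other detection filters, 1 fit of 9 groups, slide as a random block, the replicate block, no fold threshold, the lowest probe, and each array left out. The number of arrays limits the precision.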

Additional observations from a re-analysis of the deposited data

How the results depend on the processing

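Of the 39 called values of the members over the comparisons, 682 values under the alternatives gave 531 calls in the same direction, 150 of the same direction without a call and 1 of the opposite direction. Of the 136 uncalled values, 2527 alternative values gave 117 calls, and 140 had the other sign. In 2 cases the sign changed with a call on either side. With the lowest probe, Oas1b changed by 2.13 from naïve to acute LPS and by -1.42 from acute to re-stimulated LPS. Median scaling moved the median of all probes by -0.42 to 0.80, and the other scalings by at most 0.09. Called values moved by over 1.5-fold in 13 cases with median scaling (12 larger), 6 with normexp, all of them smaller and of Oas1g, 3 with all 27 arrays and 1 with the 75th percentile.

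The counts of called members that moved by over 1.5 times are given by setting, and the cause was not tested unless fewer arrays or pairs show it. Median scaling gave 2 for acute to re-stimulated LPS (4 in the report), 1 for Poly(I:C) (0), 0 for naïve to re-stimulated Pam3CSK4 (1), 1 for acute and 1 for re-stimulated Pam3CSK4 to CpG (0 and 0), and 4 for re-stimulated Pam3CSK4 to LPS (1). Scaling to the 75th percentile gave 1 for acute to re-stimulated Poly(I:C), 0 for naïve to re-stimulated Pam3CSK4 and 4 for re-stimulated Pam3CSK4 to LPS. Normexp with quantile normalization gave 1 for acute to re-stimulated Poly(I:C), 1 each for re-stimulated LPS to Poly(I:C) and CpG to LPS (0 and 0), 4 for Pam3CSK4 to LPS, and 1 for the difference of Poly(I:C) minus LPS (0), Oas1b.

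All 27 arrays gave 1 for acute to re-stimulated LPS, 1 for Poly(I:C), 1 for naïve to re-stimulated LPS (3), 0 for acute Pam3CSK4 to Poly(I:C) (4) and 0 for re-stimulated Pam3CSK4 to LPS. With no detection filter the counts were 0 for naïve to acute CpG (1), 2 for acute to re-stimulated LPS, 1 for naïve to re-stimulated LPS, 0 for naïve to re-stimulated Pam3CSK4, 3 for naïve to re-stimulated Poly(I:C) (5) and 0 for re-stimulated CpG to Poly(I:C) (4). Detection on every array of a group gave 1 for acute to re-stimulated Poly(I:C) and 3 for re-stimulated Pam3CSK4 to LPS.

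In 1 fit of 9 groups the counts were 2 for naïve to acute CpG, 2 for naïve to re-stimulated CpG (1), 1 for acute to re-stimulated Poly(I:C), 3 for acute CpG to Poly(I:C) (0), 1 for acute and 1 for re-stimulated Pam3CSK4 to CpG, and 6 for re-stimulated Pam3CSK4 to LPS. The slide as a random block (correlation 0.2201) gave 2 for naïve to acute CpG, 2 for naïve to re-stimulated CpG, 2 for acute to re-stimulated LPS, 1 for CpG (0), 2 for Poly(I:C), 5 for acute CpG to Poly(I:C), 1 for acute and 2 for re-stimulated Pam3CSK4 to CpG, and 7 for re-stimulated Pam3CSK4 to LPS. The replicate block gave 0 for naïve to acute CpG, 2 for acute to re-stimulated Poly(I:C), 0 for naïve to re-stimulated Pam3CSK4, 0 for acute Pam3CSK4 to Poly(I:C), 0 for re-stimulated CpG to Poly(I:C), 4 for re-stimulated Pam3CSK4 to LPS and 1 for re-stimulated Pam3CSK4 to CpG. From naïve to acute LPS, where the numbers share no slide, the block also left Oasl2 uncalled (adjusted p = 0.0659). Other calls that the block changed stand in the report.

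Leaving out each array in turn gave 4 to 5 members for naïve to acute LPS, 0 to 1 for CpG, 1 to 4 for Poly(I:C), 1 to 5 for acute to re-stimulated LPS and 0 to 1 for Poly(I:C). Against naïve cells it gave 0 to 4 for re-stimulated LPS, 2 to 5 for Poly(I:C) and 0 to 2 for Pam3CSK4. Between ligands it gave 0 to 4 for acute CpG to Poly(I:C), 0 to 5 for acute Pam3CSK4 to Poly(I:C), 0 to 6 for re-stimulated CpG to Poly(I:C), 0 to 5 for Pam3CSK4 to LPS, 0 to 1 for Pam3CSK4 to CpG and 5 to 6 for Pam3CSK4 to Poly(I:C). Where 1 array is left in a group, it is assumed to vary like the other group. Groups of 2 or 3 arrays limit all tests.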
